A study of Homo sapiens with 6 samples.

Results

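The heat shock chaperone network of human SZ95 sebocytes, and its transcription factors, was followed after exposure to fine particulate matter (PM2.5). Genes were chosen by symbol: HSP70 genes (HSPA followed by a number) without HSPA5, small heat shock protein genes (HSPB and CRYAB), J protein genes (DNAJA, DNAJB and DNAJC) without DNAJB9, DNAJB11 and DNAJC3, BAG1 to BAG6, chaperonin genes (TCP1, CCT2 to CCT8, HSPD1 and HSPE1), HSP90AA1, HSP90AB1, TRAP1, HSPH1, STIP1, AHSA1, HSF1, HSF2 and HSF4. These symbols gave 87 of the 27685 genes in the count table. The set was meant to hold cytosolic and mitochondrial chaperones, but it also kept 9 genes whose products sit in or on the endoplasmic reticulum, and it left out CCT6A, a subunit of the cytosolic chaperonin.

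SZ95 sebocytes come from the human sebaceous gland and, as the paper states, were immortalized with the large T antigen of a simian virus. The labels give the genotype as WT and name no further genetic change. What this antigen does to the genes studied here was not tested. In the control group, 3 samples received the vehicle, 20% ethanol, and in the PM2.5 group 3 samples received PM2.5 at 100 μg/mL, which had been suspended in the same vehicle. Both groups were kept for 24 h in a medium free of phenol red, and polyadenylated RNA was sequenced. The particles are a mixture, 1 dose and 1 time point were sequenced, all samples came from 1 cell line, and no sample without ethanol was included. Nothing in the sources tells whether the 3 samples of a group were grown separately, and each p-value therefore reflects only how far these libraries differed, which can be technical variation.

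Heat shock proteins are chaperones that bind unfolded protein, keep it from aggregating and help it to fold. HSP70 proteins bind and release clients in a cycle driven by ATP, in which J proteins deliver clients and speed ATP hydrolysis while HSP110 and BAG proteins exchange the nucleotide, and some clients then pass to HSP90 or to the ring-shaped chaperonins. The transcription factor HSF1 raises transcription of many of these genes after heat, heavy metals or oxidants by binding heat shock elements, which are repeats of the unit GAA or its complement TTC in alternating direction.

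The inducible HSP70 genes HSPA1A, HSPA1B and HSPA6 are shown with the bases before their start site because HSPA1A and HSPA1B share most of their sequence and because HSPA6 carries a full heat shock element. Sequences were taken from RefSeq on the build GRCh38.p14, whereas the counts were made on hg19, and bases inside annotated exons were left out. The printed stretches are chr6:31815293-31815463 for HSPA1A, chr6:31827488-31827734 for HSPA1B and chr1:161524290-161524539 for HSPA6, all on the plus strand. Capitals mark exact matches to GAANNTTC or TTCNNGAA, here called the 2-unit element.
HSPA1A: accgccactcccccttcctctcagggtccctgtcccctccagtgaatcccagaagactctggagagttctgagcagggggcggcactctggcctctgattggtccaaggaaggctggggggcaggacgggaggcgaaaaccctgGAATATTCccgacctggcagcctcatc
HSPA1B: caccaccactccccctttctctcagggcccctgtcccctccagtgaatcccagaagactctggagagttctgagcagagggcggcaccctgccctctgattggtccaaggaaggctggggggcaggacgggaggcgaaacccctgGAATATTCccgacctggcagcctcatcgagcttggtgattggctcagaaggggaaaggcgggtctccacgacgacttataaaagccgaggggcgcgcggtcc
HSPA6: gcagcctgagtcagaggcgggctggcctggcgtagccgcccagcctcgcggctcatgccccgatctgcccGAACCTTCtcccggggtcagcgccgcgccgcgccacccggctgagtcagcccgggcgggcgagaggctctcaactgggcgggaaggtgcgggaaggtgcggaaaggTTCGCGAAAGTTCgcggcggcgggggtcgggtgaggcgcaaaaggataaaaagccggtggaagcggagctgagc
The whole 250-base upstream windows of HSPA1A and HSPA1B, of which the printed stretches are part, were identical at 235 of the 249 bases that overlap when shifted by 1 base (94.4%), and both stretches held the same 2-unit element, GAATATTC.

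A 3-unit element, GAANNTTCNNGAA on either strand, was found within 250 bases upstream in 6 of the 76 members with a promoter entry (7.89%), against 152 of 27305 genes (0.557%). It was found in HSPA6 and in 5 other genes. The stretches around those matches are printed for these 5 because they set constitutive and inducible genes side by side, with the matched bases in capitals.
HSPA8, chr11:123062171-123062199, minus strand: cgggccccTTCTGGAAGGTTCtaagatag
HSPA8, chr11:123062346-123062374, minus strand: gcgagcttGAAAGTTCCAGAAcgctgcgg
DNAJB6, chr7:157336865-157336893, plus strand: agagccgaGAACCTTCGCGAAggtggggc
HSP90AA1, chr14:102087112-102087140, minus strand: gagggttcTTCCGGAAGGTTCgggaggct
HSP90AB1, chr6:44247770-44247798, plus strand: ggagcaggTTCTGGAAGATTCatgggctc
HSP90AB1, chr6:44247823-44247851, plus strand: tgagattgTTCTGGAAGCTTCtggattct
HSPD1, chr2:197500062-197500090, minus strand: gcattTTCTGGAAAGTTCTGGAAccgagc
Of these 6 genes, HSPA6, HSPA8 and DNAJB6 passed the test as lower with PM2.5, while HSP90AA1, HSP90AB1 and HSPD1 did not pass. The 2-unit element, which every 3-unit element contains, was found in 23 of the 76 members (30.3%), against 14% of all genes. Of the 21 tested members with it, 9 were lower, 1 was higher (DNAJA4) and 11 did not pass. Of the 50 tested members without it, 15 were lower, 7 were higher and 28 did not pass. The 9 lower members with the element include both HSPA1A and HSPA1B, whose reads may have been split between them. Over all genes tested, 22% were lower and 21.7% higher. Tested members without a promoter entry are not in these counts. They include HSF1, CRYAB, DNAJC22 and DNAJC24, which were higher, and HSPA14 and DNAJC1, which were lower. The difference between members with and without the element was not tested. A match in this window is a description of the sequence and was not tested for binding. Only exact matches were searched, so a gene without a match can still carry an element with imperfect units.

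Library totals ran from 56460553 to 71080000 counts. Values below are CPM, counts scaled to a common library size with TMM factors (trimmed mean of M-values), and 16049 genes with enough counts were tested with edgeR's quasi-likelihood test at a Benjamini-Hochberg adjusted p under 0.05, which is what "passed the test", "higher" and "lower" mean. The sebocyte markers KRT7 and MUC1 were present at mean control levels of 1411 and 114.6 CPM, while MC5R was at or near 0. Summed sebocyte markers were at 2410 to 2490 CPM in control libraries and 2910 to 3330 CPM in PM2.5 libraries, with SCD at means of 482 and 1191 CPM and FASN at 404 and 807 CPM, whereas KRT7 (log2 fold change -0.45, edgeR adjusted p = 0.00617) and MUC1 (-0.14, edgeR adjusted p = 0.0242) were lower. Summed endothelial markers were at 183 to 207 and 80.3 to 91.3 CPM, nearly all from CDH5. Summed immune markers were at 59.8 to 65.6 and 100 to 111 CPM, nearly all from CD68, with PTPRC and CD3E at or near 0. The part of these shifts in the results below was not tested. In bulk RNA, fewer cells of a type and less RNA per cell cannot be told apart.

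Of the 87 members, 79 had enough counts to be tested. Of the others, 4 (HSPA12B, HSPB7, DNAJB3 and DNAJB8) had 0 counts in every library, which allows up to 0.0407 to 0.0520 CPM (3 counts per library, counting error only), and HSPB2, HSPB3, HSPB9 and DNAJB7 had too few counts. With PM2.5, 12 members were higher and 26 were lower, together 48.1% of those tested, beside 43.6% of all 16049 genes. The lower members were 32.9% of those tested, beside 22% of all genes, and the higher members were 15.2%, beside 21.7%. The median log2 fold change was -0.06 over the tested members and 0.00 over all genes. Scaled by library size alone, without TMM factors, 16 members were higher and 15 were lower, 51.6% higher of those called, and all genes shifted the same way, to 4770 higher and 2546 lower (65.2% higher). With TMM factors these shares were 31.6% for members and 49.7% for all genes. The factors were 0.964 to 0.980 for control and 1.02 to 1.04 for PM2.5 libraries, and dropping them moved the median of all genes by 0.08 on the log2 scale. The sizes were small: 44 of the 79 tested members had an absolute log2 fold change under 0.2, and the lowest value was -0.55. At a fold over 2 with an unadjusted p under 0.05, 2 members were higher (CRYAB and DNAJB13) and 0 lower, 2.53% of those tested, beside 5.62% of all genes. At a fold over 1.5 with an unadjusted p under 0.01 it was again 2 higher and 0 lower, beside 11.9% of all genes.

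Control and PM2.5 libraries did not overlap for 50 of the 79 tested members (63.3%), beside 56.3% of all genes tested. In 32 of the 79, all PM2.5 libraries were below all control libraries, beside 28.1% of all genes. In 18 of the 79 they were above, also beside 28.1% of all genes. Summed over all members, the level was 8538, 8652 and 8679 CPM in the control libraries and 7840, 7721 and 8013 CPM in the PM2.5 libraries. The PM2.5 sums lay below the control sums in every library. The share of each library's total count was also taken, which amounts to scaling by library size alone. The members held 0.831%, 0.847% and 0.836% of the control libraries and 0.805%, 0.800% and 0.818% of the PM2.5 libraries. These shares did not overlap either, but under that scaling the median log2 fold change of the tested members was 0.02. HSPA8 alone made up 20.4% of the summed difference of -765 CPM, and DNAJC5, HSPA1A, HSPA1B and DNAJA1 a further 11.2%, 8.37%, 8.06% and 7.44%.

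**Figure D1:**
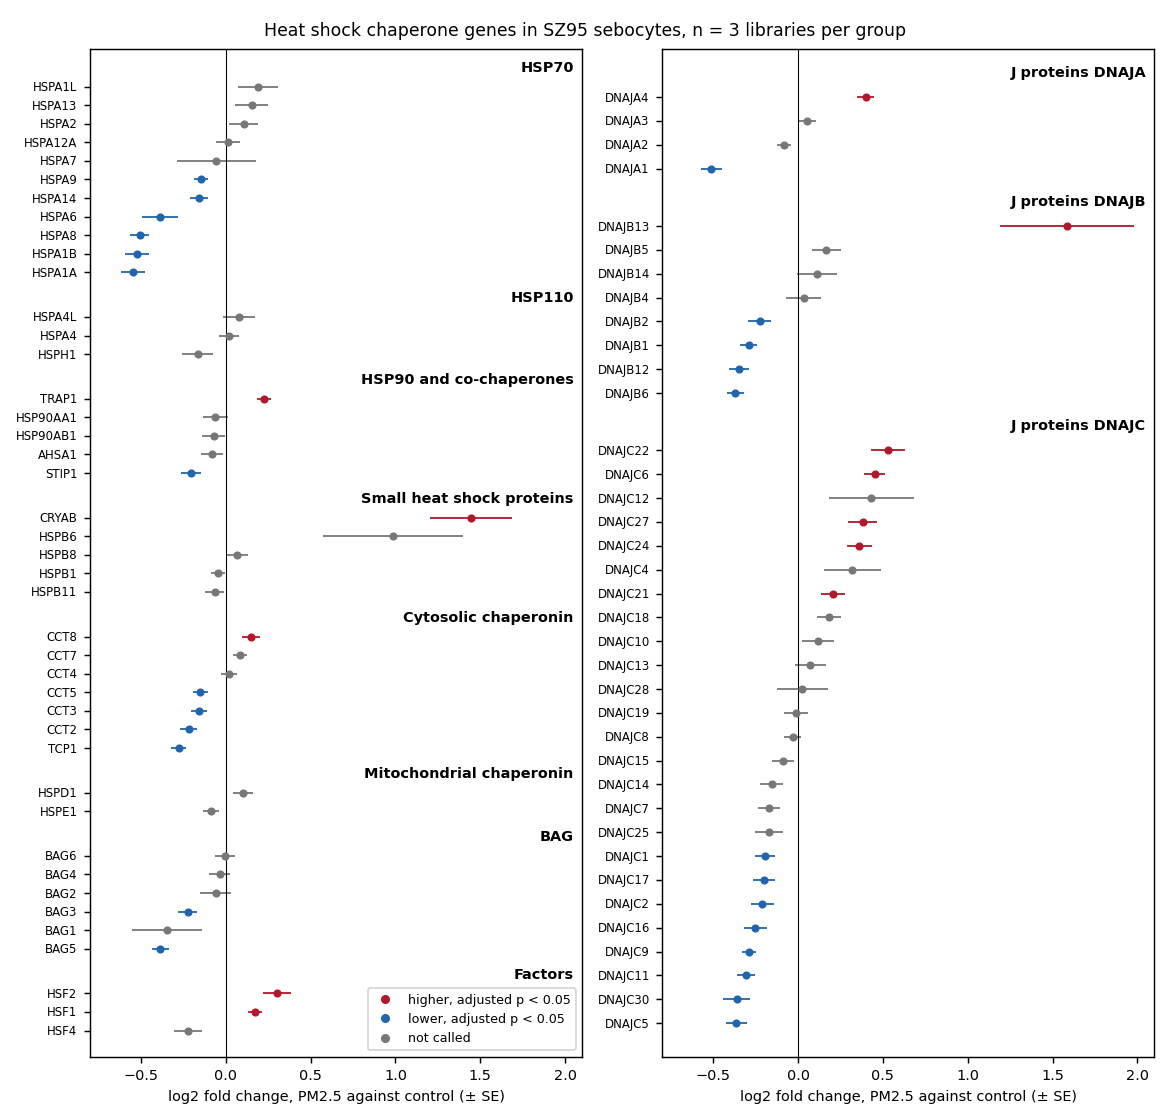
Each point is the log2 fold change of 1 tested member gene with PM2.5 against control (horizontal axis, with its standard error as the bar), sorted within families, with 3 libraries per group and red, blue and grey for higher, lower and not passing at an adjusted p under 0.05. Most of the 79 points lie within 0.2 of 0, the HSP70 group reaches -0.55, and only DNAJB13 (1.58) and CRYAB (1.45) lie above 1.

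HSPA1A, HSPA1B and HSPA8 of the HSP70 group, with the J protein gene DNAJA1, had the lowest fold changes of all members. None of the 11 tested HSP70 genes was higher and 6 were lower, beside 21.7% higher and 22% lower of all genes. The 6 include both HSPA1A and HSPA1B, whose reads may have been split between them. Of the 6, 4 were still lower when scaled by library size alone and 3 without control replicate 2, PM2.5 replicate 2 or PM2.5 replicate 3. HSPA8 encodes the constitutive cytosolic HSP70. HSPA8 was at 520, 515 and 545 CPM in the control libraries and at 373, 347 and 390 CPM in the PM2.5 libraries. Every PM2.5 library was below every control library, and the mean decreased by 29.7% (log2 fold change -0.51 ± 0.05 SE, edgeR adjusted p = 0.000314).

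HSPA1A and HSPA1B encode the inducible cytosolic HSP70, with proteins that are almost the same. HSPA1A was at 208, 192 and 210 CPM in control libraries and 136, 128 and 153 CPM in PM2.5 libraries. HSPA1B was at 206, 191 and 210 CPM in control libraries and 138, 130 and 154 CPM in PM2.5 libraries. For both genes the groups were apart and PM2.5 libraries were low, with log2 fold changes of -0.55 ± 0.07 (SE) and -0.52 ± 0.07 (edgeR adjusted p = 0.000788 and 0.000862). Of the 100-base windows of the HSPA1A transcript, 69.9% were also found in that of HSPA1B, and HSPA1B counts were 98.7% to 101% of HSPA1A counts in each library, so an unknown part of their reads may have been split between them. Their counts added into 1 row gave a log2 fold change of -0.54 (edgeR adjusted p = 0.000799).

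HSPA6 encodes a strictly stress-inducible HSP70 and was low in these cells. HSPA6 was at 2.84, 3.05 and 2.97 CPM in control libraries and 2.46, 2.14 and 2.19 CPM in PM2.5 libraries. The groups were apart, with a log2 fold change of -0.39 and an SE of 0.11 (edgeR adjusted p = 0.0203), and 27.6% of the 100-base windows of its transcript occur in that of HSPA7. Its call was lost when control replicate 2, PM2.5 replicate 2 or PM2.5 replicate 3 was left out (0.0604, 0.0756 and 0.0575 as edgeR adjusted p) and with DESeq2 (adjusted p = 0.0503). HSPA9, the HSP70 of the mitochondrial matrix (mortalin), was at 237, 244 and 235 CPM in control libraries and 220, 210 and 216 CPM in PM2.5 libraries. PM2.5 libraries were again below all control libraries, by a smaller step (-0.15 ± 0.04 SE, edgeR adjusted p = 0.0216), which did not pass with library size only (edgeR adjusted p = 0.205) or when any library but control replicate 3 was left out (0.0557 to 0.0985). HSPA14, an HSP70 that works at the ribosome with the J protein DNAJC2, was lower by a similar amount (log2 fold change -0.16, edgeR adjusted p = 0.0378), and this too did not pass with library size only (edgeR adjusted p = 0.263) or with any 1 library left out (0.0540 to 0.114). HSPA1L (0.19), HSPA2 (0.10), HSPA13 (0.15), HSPA12A (0.01) and HSPA7 (-0.06), as log2 fold changes, did not pass the test.

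**Figure D2:**
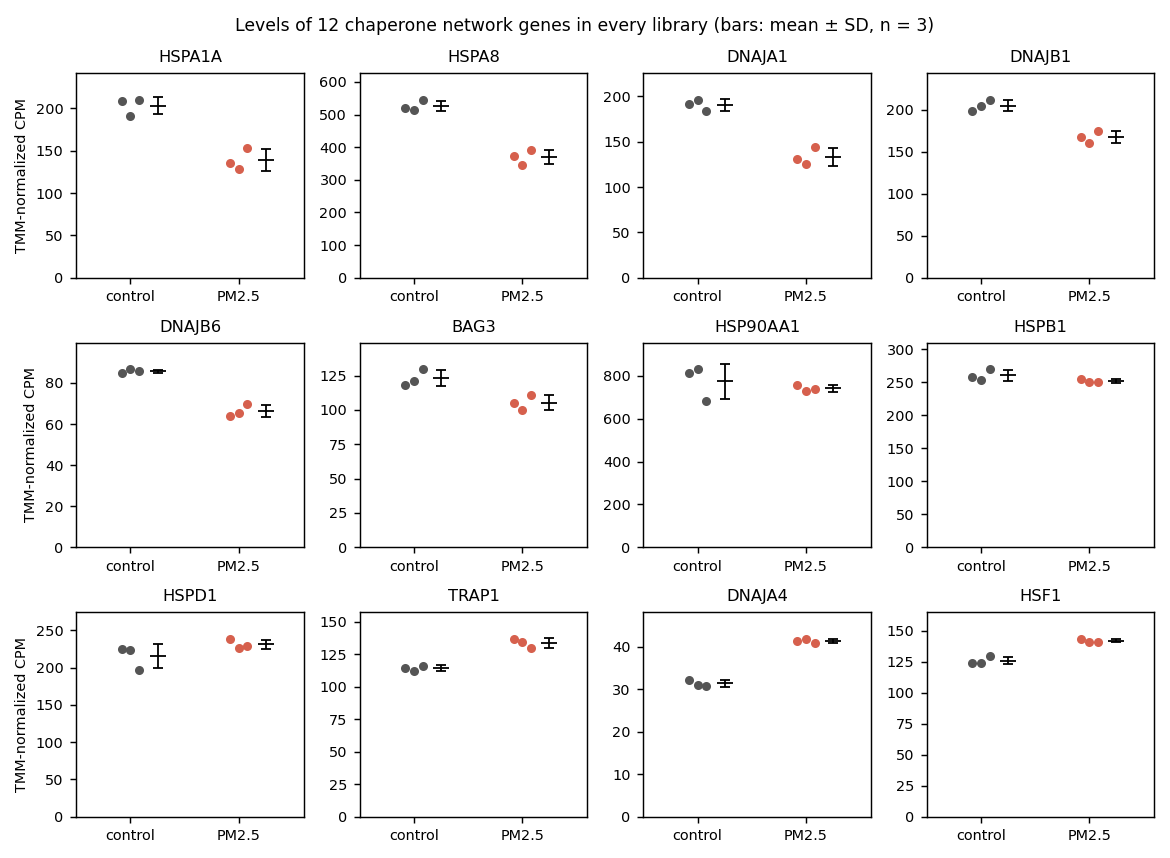
Points are TMM-normalized CPM (vertical axis from 0) of 12 member genes in each of the 3 control and 3 PM2.5 libraries, with the mean and SD beside them. HSPA1A, HSPA8, DNAJA1, DNAJB1, DNAJB6 and BAG3 have all PM2.5 points below the control points, TRAP1, DNAJA4, HSF1 and HSPD1 have them above, and HSP90AA1 and HSPB1 overlap.

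J proteins were the largest family. Of 37 tested, 13 were lower and 7 were higher, beside 22% lower and 21.7% higher of all genes. DNAJA1 and DNAJB1 encode the main cytosolic J proteins that serve HSPA8 and HSPA1A. DNAJA1 was at 191, 196 and 184 CPM in control libraries and 131, 125 and 144 CPM in PM2.5 libraries. DNAJB1 was at 199, 205 and 212 CPM in control libraries and 168, 160 and 175 CPM in PM2.5 libraries. Both were below the control range in every PM2.5 library, DNAJA1 with a log2 fold change of -0.51 ± 0.06 (SE) and DNAJB1 with -0.29 ± 0.05 (edgeR adjusted p = 0.000497 and 0.0026). Their relative DNAJA4, a cytosolic J protein with the same domain layout as DNAJA1, went the other way. DNAJA4 was at 32.3, 31.1 and 30.8 CPM in control libraries and 41.3, 41.8 and 40.9 CPM in PM2.5 libraries. All PM2.5 libraries were high (0.40 ± 0.05 SE, edgeR adjusted p = 0.00054). DNAJA2 and the mitochondrial DNAJA3 had log2 fold changes of -0.08 and 0.05 and did not pass.

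Among the other DNAJB genes, DNAJB6, whose product keeps polyglutamine proteins from aggregating, was at 85.1, 86.6 and 85.7 CPM in control libraries and 64.1, 65.1 and 69.9 CPM in PM2.5 libraries. The control libraries lay within 2 CPM of each other and the PM2.5 libraries were all low (log2 fold change -0.37 ± 0.05 SE, edgeR adjusted p = 0.000776). DNAJB12, a J protein of the endoplasmic reticulum membrane that takes part in the disposal of misfolded membrane proteins, was at 63.5, 62.8 and 71.2 CPM in control libraries and 50.5, 51.2 and 53.4 CPM in PM2.5 libraries. It was low in every PM2.5 library (-0.35 ± 0.06 SE, edgeR adjusted p = 0.00278). DNAJB2 was also lower (-0.23, edgeR adjusted p = 0.025), a call that was lost with library size only (edgeR adjusted p = 0.089) and without PM2.5 replicate 1 or 2 (0.0836 and 0.0647). DNAJB13, a J protein of cilia and sperm flagella, passed as higher at a mean of only 0.0881 CPM in control libraries and 0.267 CPM in PM2.5 libraries (log2 fold change 1.58 ± 0.40 SE, edgeR adjusted p = 0.0136), and missed the threshold without control replicate 1 or PM2.5 replicate 2 (0.0527 and 0.0501). DNAJB4, DNAJB5 and DNAJB14 (0.03, 0.17 and 0.11) did not pass.

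Products of the 25 DNAJC genes use the J domain in many specialized settings. Of these genes 8 were lower and 5 were higher, beside 22% lower and 21.7% higher of all genes. Only 4 or 5 were lower when control replicate 1 or 2 or any PM2.5 library was left out. DNAJC5 encodes the cysteine string protein, a chaperone on secretory vesicles. DNAJC5 was at 377, 372 and 407 CPM in control libraries and 299, 278 and 322 CPM in PM2.5 libraries. All PM2.5 libraries were low (-0.36 ± 0.06 SE, edgeR adjusted p = 0.0027). A pair of mitochondrial J protein genes was lower as well. DNAJC30, linked to the respiratory chain, was at 13.4, 14.9 and 15.5 CPM in control libraries and 11.1, 10.9 and 12 CPM in PM2.5 libraries. DNAJC11, which associates with the complexes that shape the inner membrane, was at 85.1, 81.7 and 91.4 CPM in control libraries and 70.4, 68.1 and 70.2 CPM in PM2.5 libraries. The groups did not overlap for either, with log2 fold changes of -0.36 ± 0.08 (SE) and -0.31 ± 0.05 (edgeR adjusted p = 0.00741 and 0.00273). The other lower genes were DNAJC9, a chaperone of histones (-0.29), DNAJC16 (-0.25), the ribosome-bound DNAJC2 (-0.21), DNAJC17 (-0.20) and DNAJC1 of the endoplasmic reticulum (-0.20), and of these only DNAJC9 kept its call in all 15 alternative settings. Leaving out 1 library ended the calls of DNAJC16 (4 of the 6 libraries), DNAJC2 (5), DNAJC17 (6) and DNAJC1 (4), with edgeR adjusted p from 0.0523 to 0.120.

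The higher DNAJC genes were mostly of low or moderate level. DNAJC6 encodes auxilin, which recruits HSC70 to strip the coat from clathrin-coated vesicles. DNAJC6 was at 20.7, 21.1 and 22.9 CPM in control libraries and 28.5, 30.7 and 29.3 CPM in PM2.5 libraries. DNAJC22, the human relative of a Drosophila gene for clathrin-dependent uptake, was at 2.02, 1.9 and 2.03 CPM in control libraries and 2.85, 2.85 and 2.9 CPM in PM2.5 libraries. Both were high in every PM2.5 library, with log2 fold changes of 0.45 ± 0.06 (SE) and 0.53 ± 0.10 (edgeR adjusted p = 0.000918 and 0.00413). DNAJC27, a small GTPase with a J domain, was at 8.44, 8.91 and 8.14 CPM in control libraries and 11.1, 12 and 9.97 CPM in PM2.5 libraries. DNAJC24, which takes part in making diphthamide on elongation factor 2, was at 6.85, 7.06 and 7.2 CPM in control libraries and 8.77, 9.51 and 8.79 CPM in PM2.5 libraries. These were also separated by group (0.38 ± 0.09 SE and 0.36 ± 0.07, edgeR adjusted p = 0.00931 and 0.00545). DNAJC21, a factor of large ribosomal subunit maturation, was at 83.7, 90.1 and 75.5 CPM in control libraries and 97.7, 99 and 91.2 CPM in PM2.5 libraries, where the highest control library came within 2 CPM of the lowest PM2.5 library. It passed narrowly (0.21 ± 0.07 SE, edgeR adjusted p = 0.043) and kept its call in 9 of 15 settings, losing it when any library but control replicate 2 was left out (edgeR adjusted p = 0.0564 to 0.131). Of the 12 DNAJC genes that did not pass, DNAJC4 was at 33.9 CPM in PM2.5 replicate 1 and at 23.5 and 21 CPM in the other PM2.5 libraries, against 18.6 to 22.5 CPM in control libraries.

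No BAG or HSP110 gene passed as higher. Of 6 BAG genes, 2 were lower, and of 3 HSP110 genes none passed edgeR's test. Over all genes tested, 22% were lower and 21.7% higher. BAG5, an exchange factor that also binds Parkin, was at 55.2, 58.9 and 58.3 CPM in control libraries and 43.6, 42.8 and 45.5 CPM in PM2.5 libraries. BAG3, which couples HSP70 to small heat shock proteins and to autophagy, was at 118, 121 and 129 CPM in control libraries and 105, 99.7 and 111 CPM in PM2.5 libraries. Both were low in every PM2.5 library, BAG5 with a log2 fold change of -0.39 ± 0.05 (SE) and BAG3 with -0.23 ± 0.06 (edgeR adjusted p = 0.000755 and 0.0134), and BAG3 missed the threshold with library size only (edgeR adjusted p = 0.0501). BAG1 turned on 1 library. It was at 78, 142 and 144 CPM in control libraries and 91.2, 90.5 and 104 CPM in PM2.5 libraries, so control replicate 1 lay below all PM2.5 libraries and the others above. With that library BAG1 did not pass (-0.35 ± 0.21 SE, edgeR adjusted p = 0.208), and without control replicate 1 it did (-0.59, edgeR adjusted p = 0.00173). BAG2 (-0.06), BAG4 (-0.04) and BAG6 (-0.0042) had log2 fold changes near 0. HSPH1, the heat-inducible HSP110, was at 55.3, 54.8 and 50.8 CPM in control libraries and 45.3, 43.1 and 55 CPM in PM2.5 libraries. Its PM2.5 replicate 3 lay within the control range, and the change did not pass (-0.17 ± 0.09 SE, edgeR adjusted p = 0.176). Without PM2.5 replicate 3 it did (edgeR adjusted p = 0.0208). HSPA4 (0.02) and HSPA4L (0.08) did not pass.

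The cytosolic HSP90 genes did not separate by group. HSP90AA1, the inducible form, was at 815, 831 and 681 CPM in control libraries and 759, 730 and 738 CPM in PM2.5 libraries. HSP90AB1, the constitutive form, was at 589, 672 and 684 CPM in control libraries and 590, 607 and 655 CPM in PM2.5 libraries. The ranges overlapped, and the log2 fold changes were -0.06 ± 0.07 (SE) and -0.07 ± 0.07 (edgeR adjusted p = 0.528 and 0.434). Without control replicate 3, the lowest control library, HSP90AA1 passed as lower (edgeR adjusted p = 0.0207). STIP1, the adaptor that hands clients from HSP70 to HSP90, was lower (-0.21 ± 0.06 SE, edgeR adjusted p = 0.0255), but not with library size only (edgeR adjusted p = 0.101) or without PM2.5 replicate 1 or 2 (0.0895 and 0.0797). AHSA1, which stimulates the ATPase of HSP90, had a log2 fold change of -0.08 and did not pass. TRAP1, the HSP90 of mitochondria, was at 115, 112 and 116 CPM in control libraries and 137, 134 and 130 CPM in PM2.5 libraries. All PM2.5 libraries were high (0.22 ± 0.04 SE, edgeR adjusted p = 0.00426), and the call held in all 15 alternative settings.

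Small heat shock proteins hold unfolded protein without using ATP. HSPB1, the most abundant of them here, was at 259, 253 and 270 CPM in control libraries and 256, 250 and 251 CPM in PM2.5 libraries. The groups overlapped (log2 fold change -0.05 ± 0.04 SE, edgeR adjusted p = 0.414). CRYAB, encoding alpha B-crystallin, was low in level, with 0.296, 0.303 and 0.353 CPM in control libraries and 0.737, 1.04 and 0.798 CPM in PM2.5 libraries. These values rest on 18, 19 and 24 counts in control and 45, 77 and 46 counts in PM2.5 libraries. All PM2.5 libraries were high, with a log2 fold change of 1.45 and an SE of 0.24 (edgeR adjusted p = 0.00223). HSPB6, also below 1 CPM, had a log2 fold change of 0.98 and did not pass (edgeR adjusted p = 0.0876), and neither did HSPB8 (0.07) or HSPB11 (-0.07).

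The cytosolic chaperonin TRiC folds actin and tubulin in a double ring of 8 different subunits, and its subunit genes did not move together. TCP1, the alpha subunit, was at 165, 159 and 160 CPM in control libraries and 132, 129 and 139 CPM in PM2.5 libraries. All PM2.5 libraries were low (log2 fold change -0.28 ± 0.05 SE, edgeR adjusted p = 0.00202). CCT2 (-0.22), CCT3 (-0.16) and CCT5 (-0.15) were lower too (edgeR adjusted p = 0.00711, 0.0245 and 0.0279), while CCT4 (0.02) and CCT7 (0.08) did not pass. CCT8 was at 136, 138 and 125 CPM in control libraries and 151, 151 and 142 CPM in PM2.5 libraries. Its PM2.5 values exceeded all control values, at the edge of the threshold (0.15 ± 0.05 SE, edgeR adjusted p = 0.0499), and this call was lost in 9 of 15 settings, among them each left-out library (0.0543 to 0.153). The calls of CCT3 and CCT5 were also lost without control replicate 1 or PM2.5 replicate 1 or 2, and that of CCT5 without PM2.5 replicate 3 (0.0515 to 0.0927). CCT6A, which completes the ring but was not chosen by symbol, was at 149, 152 and 142 CPM in control libraries and 117, 116 and 128 CPM in PM2.5 libraries (-0.29 ± 0.05 SE, edgeR adjusted p = 0.00346). With library size only, TCP1 and CCT2 stayed lower, CCT3 and CCT5 did not pass, and CCT7 and CCT8 were higher, so the subunits were spread in both scalings. The differences between subunits were not tested as such.

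**Figure D3:**
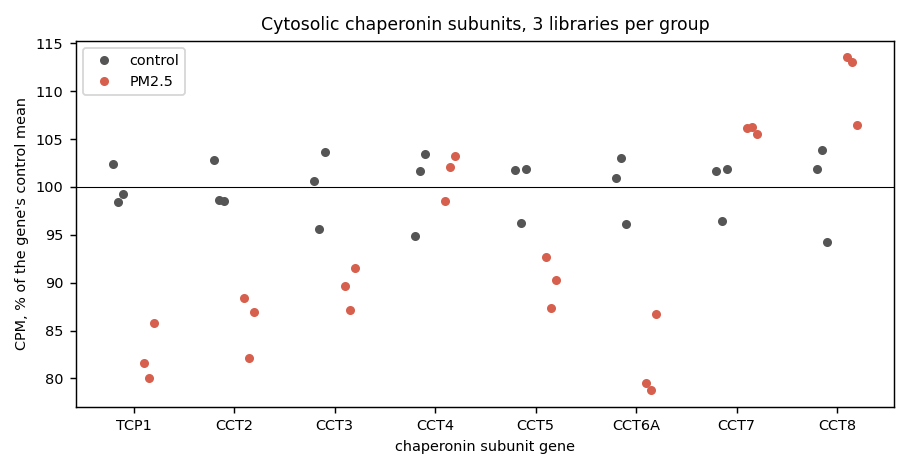
Points are the CPM of the 8 subunit genes of the cytosolic chaperonin in each control (grey) and PM2.5 (red) library, as a percentage of that gene's control mean, which is the line at 100. PM2.5 points of TCP1, CCT2, CCT3, CCT5 and CCT6A lie below the control points, those of CCT7 and CCT8 above, and those of CCT4 among them.

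The mitochondrial chaperonin did not pass in either subunit. HSPD1, which forms the chamber, was at 225, 224 and 197 CPM in control libraries and 238, 227 and 228 CPM in PM2.5 libraries. HSPE1, the lid, was at 52.7, 53.4 and 51.5 CPM in control libraries and 47.7, 50.9 and 49.8 CPM in PM2.5 libraries. The PM2.5 values all exceeded the control values for HSPD1 and fell short of them for HSPE1, but by small steps (0.10 ± 0.06 SE and -0.09 ± 0.05, edgeR adjusted p = 0.209 and 0.177), and HSPD1 passed as higher with library size only (edgeR adjusted p = 0.0459). HSPE1 shares 11% of its 100-base windows with the readthrough gene HSPE1-MOB4, which had 192, 204 and 56 counts in control and 39, 0 and 26 counts in PM2.5 libraries. With both rows added, the log2 fold change of HSPE1 was -0.14 (edgeR adjusted p = 0.0564). Of all 10 members with mitochondrial products, TRAP1 was higher, HSPA9, DNAJC11 and DNAJC30 were lower, and 6 did not pass. Over all genes tested, 22% were lower and 21.7% higher. Of the 9 members with products in or on the endoplasmic reticulum, DNAJB12, DNAJC1 and DNAJC16 were lower and 6 did not pass, with a median log2 fold change of -0.16, and 1 was lower with library size only or when control replicate 1, control replicate 2 or PM2.5 replicate 2 was left out. DNAJC18 passed as higher with library size only, with upper-quartile scaling and at a mean count of at least 50.

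The heat shock factor genes were higher or did not pass. HSF1, the main stress-responsive factor, was at 124, 124 and 130 CPM in control libraries and 143, 141 and 141 CPM in PM2.5 libraries. HSF2, a factor that can form mixed trimers with HSF1, was at 16.3, 16.1 and 13.7 CPM in control libraries and 18.2, 20.1 and 18.4 CPM in PM2.5 libraries. Both were high in every PM2.5 library, with log2 fold changes of 0.17 ± 0.04 (SE) and 0.30 ± 0.08 (edgeR adjusted p = 0.0115 and 0.0209). HSF1 missed the threshold without control replicate 1 (edgeR adjusted p = 0.0501) and HSF2 without PM2.5 replicate 2 (edgeR adjusted p = 0.0838). HSF4, a factor best known from the lens, had a log2 fold change of -0.22 and did not pass (edgeR adjusted p = 0.0578), although it did without control replicate 1 (edgeR adjusted p = 0.0226). HSF1 activity depends on trimer formation and phosphorylation, which mRNA levels do not measure.

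Levels were compared between genes per kilobase of transcript, as mean CPM divided by the length of the longest matched transcript. That length was 3510 bases for HSP90AA1 and 2644 bases for HSP90AB1. Ranks depend on this choice, since a shorter isoform would give a higher level, and other isoforms were not tried. In control libraries HSPB1 had the highest level, at 287 CPM per kilobase, followed by HSP90AB1 at 245, HSP90AA1 at 221 and HSPA8 at 214 CPM per kilobase. The levels of HSP90AA1 and HSPA8 differed by less than the SD of HSP90AA1 between control libraries, 23.4 CPM per kilobase. With PM2.5, HSPA8 was at 150 CPM per kilobase and remained the fourth. HSPA1A, HSPA1B and DNAJA1 were at 81.9, 80.3 and 80.0 CPM per kilobase in control libraries, 3 neighbours in rank (11 to 13) that differed by less than the spread between libraries. With PM2.5 they held ranks 18, 20 and 19 of the 86 members with a matched transcript. HSPA1A and HSPA1B were ranked as separate rows. Their reads may have been split between them, and their summed level was not ranked.

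Among genes around the network that were not chosen by symbol, some were higher and some lower, as among all genes tested. Of 12 other genes that HSF1 is known to induce, 5 were lower (DEDD2, CHORDC1, IER5, CACYBP and UBB) and 2 were higher, FKBP4 and the collagen chaperone SERPINH1, beside 22% lower and 21.7% higher of all genes. The 5 lower genes became 3 with library size only and 2 without PM2.5 replicate 1. Of 19 tested co-chaperones of HSP90 and HSP70, 4 were lower (HSPBP1, CHORDC1, PTGES3 and SGTA) and 3 were higher, beside the same shares of all genes. With library size only 3 were lower and 6 higher, and with upper-quartile scaling 5 were higher. The higher ones included FKBP4 (log2 fold change 0.46, edgeR adjusted p = 0.000246), an immunophilin that binds HSP90 in steroid receptor complexes, and FKBP8 (0.24, edgeR adjusted p = 0.00251), a membrane-anchored relative. CYP1A1, the classical target of the aryl hydrocarbon receptor and a check of the treatment labels, was at 3.19, 3.15 and 4.34 CPM in control libraries and 555, 531 and 594 CPM in PM2.5 libraries (log2 fold change 7.29, edgeR adjusted p = 7.16e-08).

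The next lists also stand beside 22% lower and 21.7% higher of all genes. Among 10 prefoldin, CCT6 and related genes, PFDN2 was higher, CCT6A was lower and 8 did not pass. With library size only 5 were higher, and 2 were higher without control replicate 3 or PM2.5 replicate 3. Among 12 genes of mitochondrial folding and proteolysis, CLPP (0.46), CLPB (0.38) and PITRM1 (0.24) were higher and GRPEL1 (-0.28), HTRA2 (-0.19) and SPG7 (-0.15) were lower, as log2 fold changes, and 1 was lower with library size only or without control replicate 1 or PM2.5 replicate 1. CLPP is the matrix protease and GRPEL1 the exchange factor of HSPA9. Of 7 tested genes related to HSF1 control, DAXX (-0.20) and EP300 (-0.14) were lower and 5 did not pass. Neither was lower with library size only, where 2 other genes of the list were higher, or without control replicate 1 or PM2.5 replicate 2, and 1 was without PM2.5 replicate 1. Of 12 counterparts in the endoplasmic reticulum, 8 were lower, 1 was higher (SIL1), and the median log2 fold change was -0.38, beside -0.15 for the HSP70 group. HSPA5, the HSP70 of that compartment, was at 882, 867 and 825 CPM in control libraries and 535, 488 and 530 CPM in PM2.5 libraries (-0.73 ± 0.05 SE, edgeR adjusted p = 7.03e-05). No test of the difference between these lists was made.

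**Figure D4:**
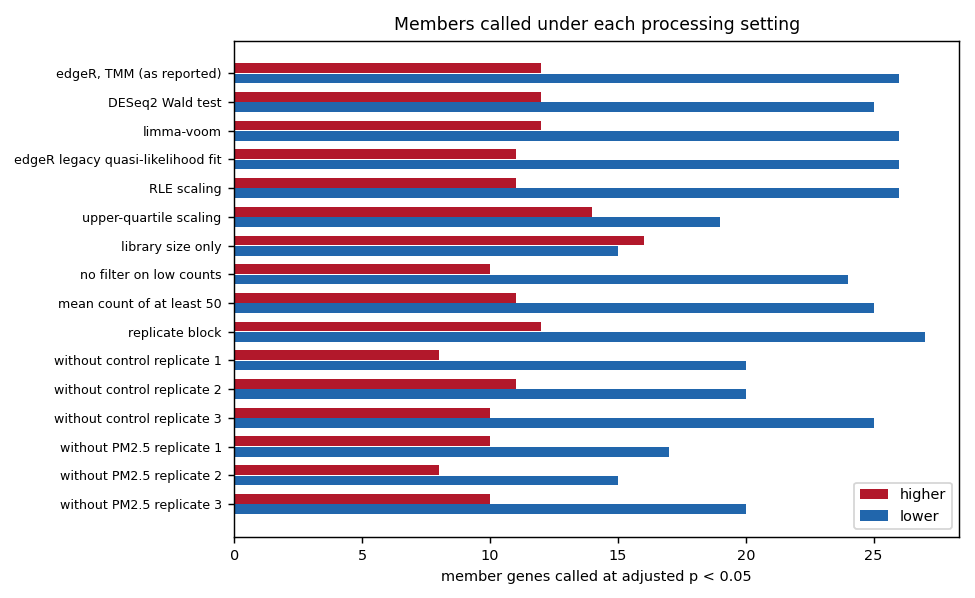
Bars give the number of the member genes that were higher (red) or lower (blue) with PM2.5 at an adjusted p under 0.05, under the reported setting (12 and 26) and 15 alternatives. The number of lower genes ranges from 15 to 27 and the number of higher genes from 8 to 16, and with library size only they are 16 higher and 15 lower.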

How the data were processed

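RNA-seq of 3 control and 3 PM2.5 samples was used, mapped to groups by their titles. The authors deposited 1 table of whole-number read counts per gene, not normalized. The submitters' processing notes name DESeq2, StringTie 1.3.3b, HISAT2 2.0.5 and Trimmomatic 0.32, with the build hg19. How reads were counted, and whether by strand, is not given in the sources used here, so reads of overlapping or antisense genes cannot be told apart. One column name with an extra hyphen was read as PM2.5 replicate 1.

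Analyses used R 4.3.3. In edgeR 4.0.16, filterByExpr (minimum count 10, minimum total 15) kept 16049 genes, TMM scaled the libraries, and glmQLFit with glmQLFTest compared treatments, two-sided, without a block. The standard error was the absolute log2 fold change divided by the square root of F. Chi-square per gene was at least 18.0 for every pair of libraries, so none was counted as a duplicate. An exact permutation test of 3 against 3 cannot go below p = 0.1 and was not used. Alternatives were DESeq2 1.42.0, limma-voom (limma 3.58.1), edgeR's legacy fit, other scalings and filters, a replicate block, leaving out each library, fold thresholds and adding counts of paired genes.

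The members, lists and tests were chosen with earlier results of these data known. Values per library are given for called members with the largest changes, up to 12 in each direction with at least 1 CPM in the higher group, and for 18 members named whatever their values. DNAJB13, BAG1, DNAJC4 and the genes named outside the members were chosen after their values were seen. Some genes of the lists are not reported here. Heat shock elements were searched in 250 bases upstream (RefSeq, GRCh38.p14, 76 members matched). Transcript lengths were those of the longest matched transcript in GENCODE.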

Additional observations from a re-analysis of the deposited data

How the results depend on the processing

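Of the 38 members that passed, 21 passed in each of the 15 alternative settings that gave a value for them (7 higher, 14 lower), 17 lost the call in at least 1, and none changed sign. CRYAB and DNAJB13 gave no value at a mean count of at least 50. DESeq2's Wald test gave 12 higher and 25 lower members and limma-voom 12 and 26. With library size only, 15 members were lower and 16 higher, and all genes split into 4770 higher and 2546 lower in place of 3476 and 3523. Under each of the fold thresholds, 2 members were higher and 0 lower. Leaving out each library in turn gave 8 to 11 higher and 15 to 25 lower members, with 17 lower when PM2.5 replicate 1 was left out and 15 for PM2.5 replicate 2. The replicate block gave 12 higher and 27 lower members. Same-numbered libraries did not deviate together (correlations -0.0321, 0.0693 and 0.107), and not every library correlated best with its own number, so the numbers were not used as pairs.

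Members that changed sign did so at log2 fold changes near 0, and none of them passed the test as reported. With library size only they were HSPA7 (0.027), HSPB1 (0.035), HSP90AA1 (0.017), HSP90AB1 (0.010), BAG2 (0.022), BAG4 (0.044), BAG6 (0.077), DNAJC8 (0.049), DNAJC19 (0.069) and HSPB11 (0.015). With upper-quartile scaling they were BAG6 (0.032), DNAJC8 (0.0038) and DNAJC19 (0.024), without a filter BAG6 (0.0070), and at a mean count of at least 50 BAG6 (0.014) and DNAJC19 (0.0042). Leaving out each library moved HSPA4 from -0.033 to 0.072, HSPA7 from -0.16 to 0.073, HSPA12A from -0.023 to 0.060, BAG6 from -0.050 to 0.058, CCT4 from -0.020 to 0.045, DNAJB4 from -0.055 to 0.12, DNAJB14 from -0.0091 to 0.19, DNAJC8 from -0.059 to 0.0048, DNAJC13 from -0.035 to 0.15, DNAJC19 from -0.067 to 0.037 and DNAJC28 from -0.071 to 0.15. The causes were not tested. Depth limits what can be said of CRYAB, DNAJB13, HSPB6 and the 8 untested members.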
